A study of Mus musculus with 6 samples.

Results

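The genes described here are 7 mouse genes of the Fc gamma receptor system: the receptors Fcgr1, Fcgr2b, Fcgr3 and Fcgr4, their signalling chain Fcer1g, the neonatal Fc receptor Fcgrt, and the inositol phosphatase Inpp5d, known as SHIP1. They were taken by gene symbol, with every probe set annotated to them, which gave 13 of the 45101 probe sets on the array. The genes were picked with earlier results of the same comparison known, so their differences between the arms are given as a description, without a test. The cells were 32D, an interleukin-3-dependent myeloid line from mouse bone marrow, and 6 arrays were run: 3 on cells made to express miR-9/9*, and 3 on cells carrying the empty vector. The labels name the constructs C2-MiR-9 and A1-EV and say nothing further of the vector, its promoter or how the cells were selected. Every culture, in each arm, grew with 10% fetal calf serum and 10 ng/ml murine interleukin-3, and the replicates are called independent without saying how they were separated.

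Fc gamma receptors bind the constant part of IgG and tie antibody to the responses of myeloid cells. Fcgr1, Fcgr3 and Fcgr4 encode activating receptors, which reach the cell surface and signal through the Fc receptor gamma chain encoded by Fcer1g. That chain carries an immunoreceptor tyrosine-based activation motif, or ITAM, which Src family kinases phosphorylate so that the kinase Syk can dock. Fcgr2b encodes the inhibitory receptor of the family, whose tail carries the inhibitory counterpart of that motif, the ITIM, and recruits the SHIP1 phosphatase. SHIP1 removes a phosphate from the lipid made by PI3-kinase and so dampens the activating signal. Fcgrt is not part of that balance: it encodes the receptor that salvages IgG inside cells and works as a pair with beta-2 microglobulin.

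The sequences of the expressed microRNAs are shown because they define the arms. They are mature strands from RefSeq with the build GRCm38.p6, and the capitals mark the seed, bases 2 to 8, through which a microRNA recognises its messages. The strand miR-9* is listed there as miR-9-3p.
mmu-miR-9-5p: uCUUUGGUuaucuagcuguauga
mmu-miR-9-3p: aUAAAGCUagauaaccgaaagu
The seeds of the strands differ. Messages were not searched for seed matches, since no 3' untranslated region was used here.

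RefSeq promoter windows, from 250 bases before to 50 bases after an annotated start, matched all 7 genes by symbol. The windows of Fcgr2b, Fcgr3 and Fcgr1 are shown because the signals of Fcgr2b and Fcgr3 differed in opposite directions between the arms and that of Fcgr1 went with Fcgr2b. Each is written 5′ to 3′ along the gene. The capitals mark GAGGAA or its reverse complement TTCCTC, 1 form of the site bound by the myeloid factor PU.1, and other forms were not searched.
Fcgr2b (chr1:170976022-170976321, minus strand): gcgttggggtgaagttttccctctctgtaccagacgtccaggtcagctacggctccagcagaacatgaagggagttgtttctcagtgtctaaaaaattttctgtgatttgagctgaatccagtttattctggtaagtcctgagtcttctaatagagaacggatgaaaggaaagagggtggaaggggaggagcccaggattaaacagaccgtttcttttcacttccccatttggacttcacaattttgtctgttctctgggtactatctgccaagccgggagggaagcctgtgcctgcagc
Fcgr3 (chr1:171059354-171059653, minus strand): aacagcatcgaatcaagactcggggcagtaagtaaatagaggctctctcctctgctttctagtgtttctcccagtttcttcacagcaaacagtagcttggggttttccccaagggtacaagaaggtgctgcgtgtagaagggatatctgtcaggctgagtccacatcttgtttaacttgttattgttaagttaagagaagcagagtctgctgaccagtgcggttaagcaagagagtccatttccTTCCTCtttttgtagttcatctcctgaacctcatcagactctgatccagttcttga
Fcgr1 (chr3:96293920-96294219, minus strand): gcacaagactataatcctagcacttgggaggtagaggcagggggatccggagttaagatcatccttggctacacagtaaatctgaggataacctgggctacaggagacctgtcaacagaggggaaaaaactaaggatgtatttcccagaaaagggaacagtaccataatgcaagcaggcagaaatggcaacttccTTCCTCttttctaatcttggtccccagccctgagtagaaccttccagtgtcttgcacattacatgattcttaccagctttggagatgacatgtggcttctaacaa
The Fcgr2b window holds no copy of GAGGAA on either strand. The Fcgr3 window shown has TTCCTC beginning 6 bases before its start, and the Fcgr1 window has it beginning 55 bases before. A further, overlapping Fcgr3 window has it beginning 15 bases before its own start. Both Fcgr3 windows lie inside the span of that gene (chr1:171051169-171065915), whereas those of Fcgr2b and Fcgr1 lie at the upper ends of their genes. Fcgr4 and Inpp5d also carry that form, so 4 of the 7 genes do, and Fcer1g and Fcgrt do not. Its absence from a window does not mean that the window lacks a PU.1 site. Over all RefSeq genes with a window, 31.3% hold GAGGAA or TTCCTC in at least 1 window. A second searched motif, the GATA site AGATAA or TTATCT, was in 0 of the 7 genes and in 12.7% of all genes. The searched motifs do not overlap each other, and a match describes letters only.

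The values are MAS5 signals, a linear brightness per probe set scaled on each array to a trimmed mean of 100. Differences are given on the scale log2(signal + 16), which understates changes of dim probe sets. The array median ran from 12.0 to 15.2, and a probe set counted as dim where its mean over the 6 arrays lay below the median of all probe sets, near a signal of 13. Of the 13 probe sets, 11 passed that filter, and 6 of the 7 genes had a probe set above it. Arrays of the same replicate number resembled each other across the arms, so differences were taken within numbers. In limma 6 of 10200 genes passed an adjusted p of 0.05 without a replicate block (0.0588%), and 302 with the replicate number as a block (2.96%). Without the block 0.0196% of genes rose and 0.0392% fell, and with it 1.51% rose and 1.45% fell, while 4.61% and 17% of genes had an unadjusted p under 0.05 without and with the block. The line's own markers were present: Ptprc, Csf2rb, Spi1 and Il3ra were all above the filter.

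Message for the inhibitory receptor Fcgr2b was higher with miR-9/9* on every probe set that carried signal. Message for the activating receptor Fcgr3, read by 1 probe set with overlapping arms, was lower, and the shared chain Fcer1g was slightly lower. The activating receptors did not go 1 way: on its brighter probe set Fcgr1 was higher within all 3 numbers, also with overlapping arms. In bulk RNA, fewer cells of a type and less message per cell cannot be told apart. Fcgr2b (chr1:170960558-170976071, GRCm38.p6) has 5 probe sets, of which 4 were above the filter. The brightest, 1435477_s_at, read 1636, 1137 and 1157 in miR-9/9* cells, against 964, 769 and 634 in empty vector cells for numbers 1, 2 and 3. The lowest miR-9/9* array thus lay above the highest empty vector array. Means were 1310.4 ± 282 against 789 ± 166 (SD, n = 3 each), a ratio of 1.66. Within numbers the differences were 0.75, 0.56 and 0.85 on the log2 scale, with a mean of 0.72 ± 0.15 (SD).

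The other bright Fcgr2b probe sets also kept the arms apart. Probe set 1435476_a_at read 789, 700.2 and 616 with miR-9/9*, against 484, 449 and 327 with the empty vector, and 1451941_a_at read 564, 556 and 597, against 347, 343 and 297. In neither did the arms overlap, and the mean differences were 0.73 ± 0.13 and 0.77 ± 0.17. Probe set 1455332_x_at gave the widest gap, with 853, 683 and 670.2 in miR-9/9* cells, against 419, 308 and 280 in empty vector cells, a mean difference of 1.11 ± 0.11 and a ratio of 2.19. Its suffix marks probes that may also match other transcripts, and the suffix of 1435477_s_at marks probes shared between transcripts. Fcgr2b and Fcgr3 are closely alike in their extracellular parts, and how far probes of either gene read the other could not be told from these files. The fifth probe set, 1447622_at, stayed between 0.380 and 3.40 on all 6 arrays and carries no information on the difference.

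The activating receptor Fcgr3 (chr1:171051169-171065915) has 1 probe set, 1448620_at. It read 87.6, 25.1 and 50.7 in miR-9/9* cells, against 131, 72.2 and 66.0 in empty vector cells. The arms overlap, since number 1 of the miR-9/9* arm lay above numbers 2 and 3 of the empty vector arm, but within every number the miR-9/9* array was the lower. The means were 54.5 ± 31.4 and 89.8 ± 36.0 (SD, n = 3 each). The within-number differences were -0.51, -1.10 and -0.30, with a mean of -0.64 ± 0.42, and without number 2 the mean was -0.40. Fcgr2b and Fcgr3 differed from each other in every number: the difference of 1435477_s_at exceeded that of Fcgr3 by 1.26, 1.66 and 1.15 on the log2 scale.

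Fcgr1 (chr3:96282909-96293969) encodes the high-affinity IgG receptor, found mainly on monocytes and macrophages. Its brighter probe set, 1417876_at, read 203, 237 and 267 with miR-9/9*, against 125, 183 and 253 with the empty vector. Number 1 was the lowest and number 3 the highest array of each arm, and the arms overlap. Differences within numbers were 0.63, 0.35 and 0.07, a mean of 0.35 ± 0.28, which was 0.21 without number 1. The dimmer set 1436625_at read 61.6, 50.2 and 35.2, against 31.1, 71.4 and 28.4, with differences of both signs and a mean of 0.18 ± 0.56. Without number 2 that mean was 0.46, and without number 1 it was -0.10.

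Fcgr4 (chr1:171018926-171029761) encodes the intermediate-affinity activating receptor of monocytes and neutrophils. Its probe set 1425225_at lay just below the filter, at 14.3, 9.75 and 9.64 in miR-9/9* cells, against 14.3, 12.7 and 13.8 in empty vector cells. At such signals no difference was detectable.

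Fcer1g (chr1:171229572-171234349) was bright on every array. Probe set 1418340_at read 1254, 1217 and 1435 with miR-9/9*, against 1389, 1535 and 1483 with the empty vector. The arms overlap by number 3 of the miR-9/9* arm alone, and each miR-9/9* array was below its partner. The differences were -0.15, -0.33 and -0.05, a mean of -0.17 ± 0.14, or a ratio of means of 0.886. After quantile normalization the difference of number 3 was 0.036. The difference of the Fcgr2b probe set 1435477_s_at exceeded that of the chain by 0.90, 0.89 and 0.90 on the log2 scale in the 3 numbers. The other bright Fcgr2b probe sets were less even between numbers, with excesses from 0.82 to 1.44.

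Inpp5d (chr1:87620312-87720510), the phosphatase recruited by the inhibitory receptor, had nearly the same mean signal in each arm. Probe set 1418110_a_at read 291, 218 and 253 in miR-9/9* cells, against 299, 201 and 263 in empty vector cells, with a mean difference of 0.01 ± 0.09. Number 2 was the lowest array of each arm, and the arms overlap. The second set, 1424195_a_at, read 54.2, 48.8 and 34.7, against 53.1, 44.9 and 27.7, a mean difference of 0.11 ± 0.10. Fcgrt (chr7:45092993-45103822) was dim, at 16.8, 23.2 and 8.87 on probe set 1416978_at with miR-9/9*, against 12.3, 12.6 and 10.00 with the empty vector, and its differences had both signs.

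Counted by the brightest probe set of each gene, Fcgr2b and Fcgr1 were higher within all 3 numbers, as were 21% of all genes tested, and Fcgr3 and Fcer1g were lower within all 3, as were 18%. Either way, 39% of all genes tested differed in 1 direction in all 3 numbers, beside 4 of these 6. Fcgr2b was the only one of the 6 genes whose arms did not overlap on the higher side, where 5.08% of all genes lay. On the lower side it was 0 of the 6 genes, beside 4.73% of all genes. Since the genes were chosen on this contrast, nothing is read from those counts. Within the list of differences of all 10200 genes, that of Fcgr2b ranked 50 from the top and that of Fcgr3 ranked 48 from the bottom. For the same reason nothing is read from these ranks, which use the mean difference alone and not its spread.

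**Figure D1:**
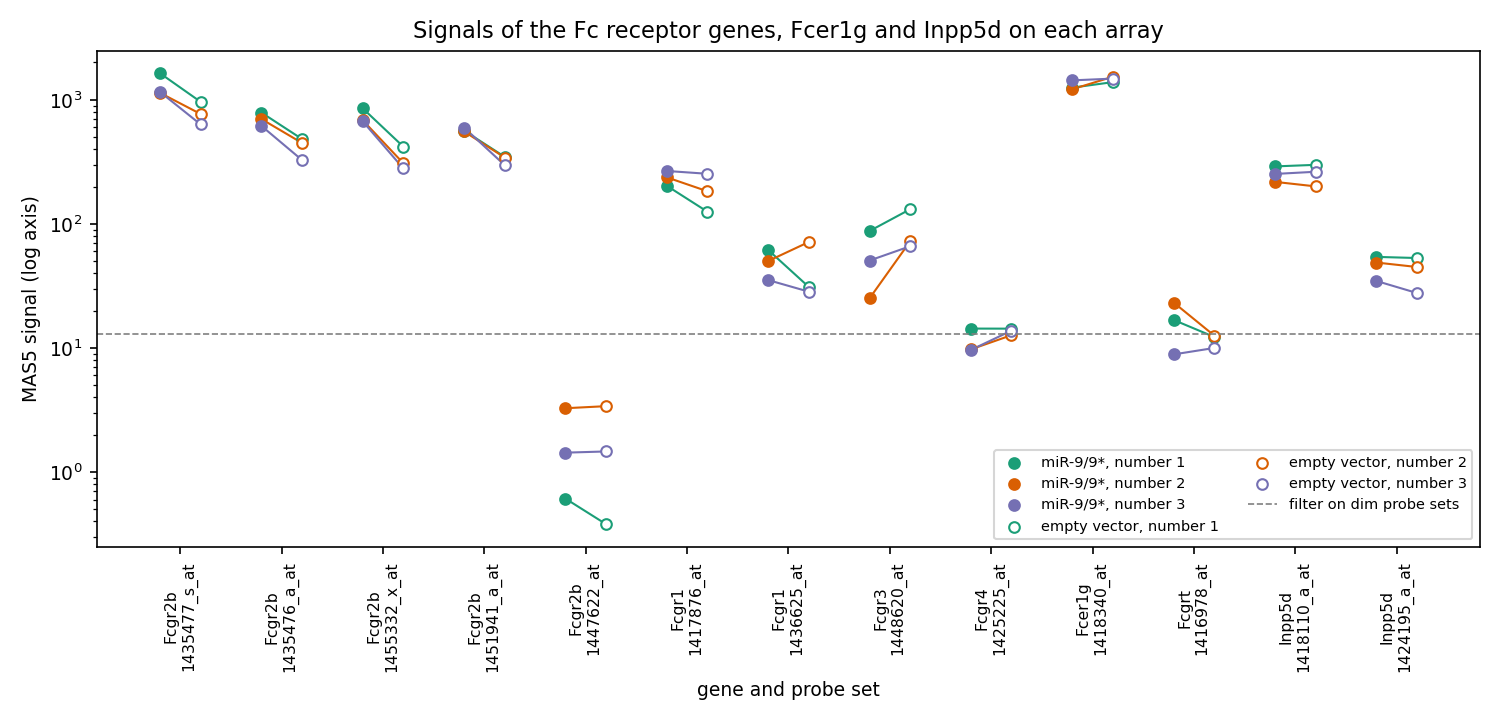
MAS5 signal (log axis) of all 13 probe sets on the 6 arrays, with filled points for miR-9/9*, open points for the empty vector, and lines joining arrays of the same replicate number. The lines of 4 Fcgr2b probe sets all run down to the empty vector, those of Fcgr3 all run up to it, and the dashed line at 13 marks the filter on dim probe sets.

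**Figure D2:**
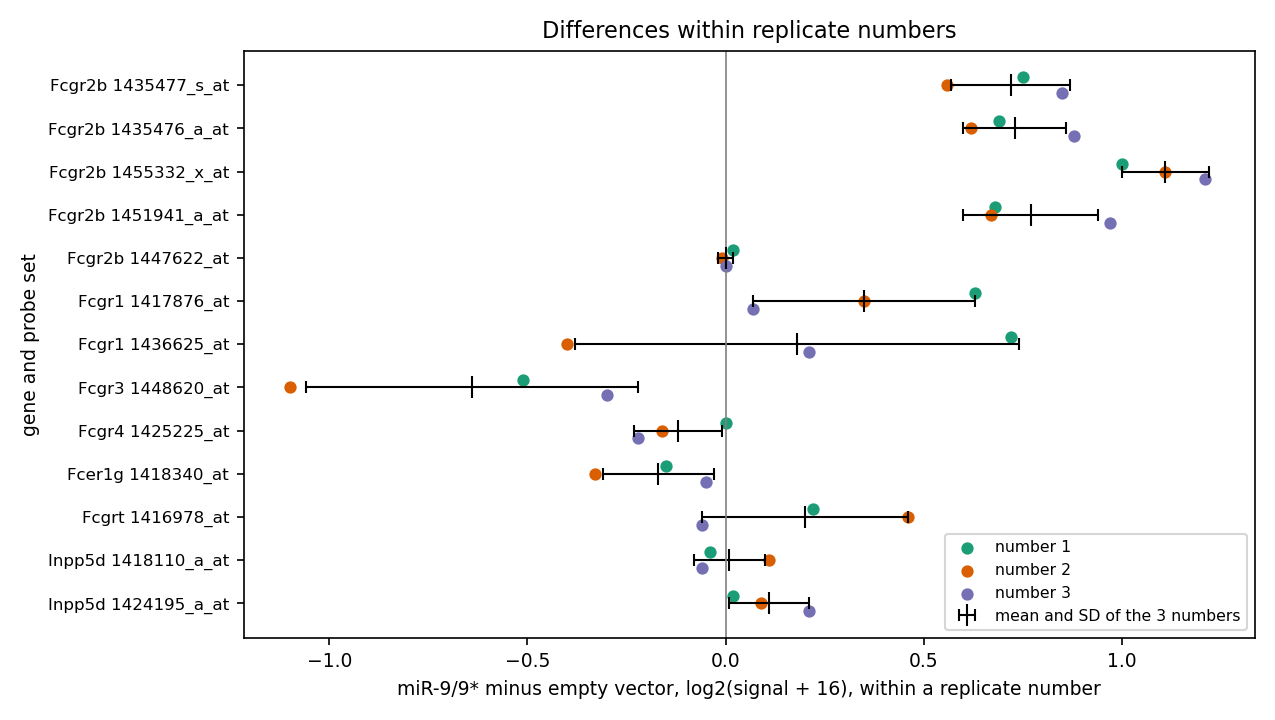
Differences of miR-9/9* minus empty vector in log2(signal + 16) within each replicate number (coloured points), with their mean and SD (bars), for each probe set. The 4 bright Fcgr2b sets lie between 0.56 and 1.21, Fcgr3 lies between -1.10 and -0.30, and both Inpp5d sets lie between -0.06 and 0.21.

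Fcgr2b, Fcgr4, Fcgr3 and Fcer1g lie in that order in a stretch of mouse chromosome 1, with Fcgr3 90.6 kb and Fcer1g 269 kb from Fcgr2b between the lower ends of the genes. Of 27 other protein-coding genes whose lower end lies within 250 kb of that of any of these 4 genes, 13 were measured, and limma passed 0 of them without a block (0 with an unadjusted p under 0.05) and 0 with it (1 with an unadjusted p under 0.05). Their differences ran from -0.18 for Dedd to 0.33 for B4galt3, with a median of 0.10, beside 0.009 for all genes. Sdhc, a subunit of succinate dehydrogenase that lies 78.0 kb beyond Fcgr3, was at 0.10, and Dusp12, a phosphatase gene on the far side of Fcgr2b, was at 0.14. The opposite differences of Fcgr2b and Fcgr3 were each larger than any of those. The receptor genes were chosen with this contrast known and their neighbours were not, so nothing is read from that. Around Fcgrt, 21 genes were measured and 2 passed with the block only. They were the only 2 to pass of the 44 measured near any of the 7 genes, beside 2.96% of all genes with the block. Ptov1 rose to 249 ± 58.3 with miR-9/9*, against 159 ± 56.8 (log2 difference 0.63, limma block adjusted p = 0.00784), and its other probe set stood at 0.04. Rras, a Ras-like GTPase, fell to 38.9 ± 12.3, against 78.1 ± 23.7 (log2 difference -0.77, limma block adjusted p = 0.04995).

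**Figure D3:**
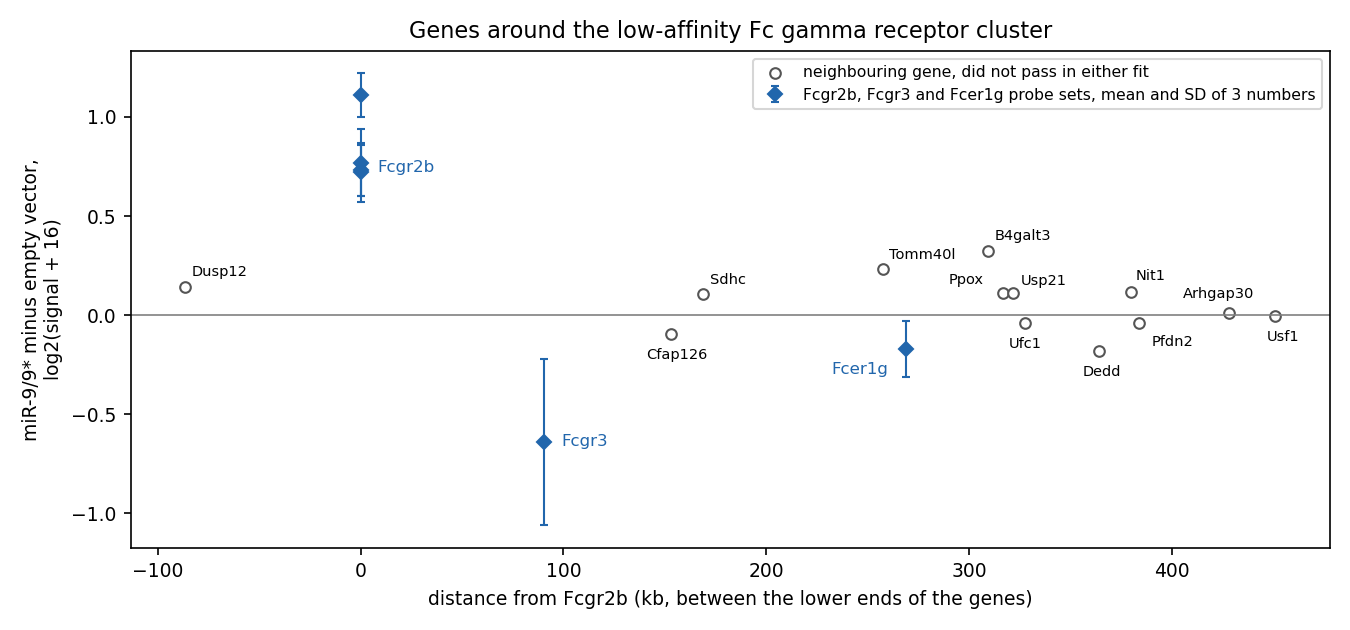
Difference of miR-9/9* minus empty vector in log2(signal + 16) for genes around the Fcgr2b, Fcgr3 and Fcer1g cluster, by distance from Fcgr2b in kb. Diamonds with SD bars are probe sets of the receptor and chain genes and open circles are the 13 measured neighbours, which lie between -0.18 and 0.33.

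The rest of the Fc receptor pathway was read from 7 lists with 128 genes, of which 88 were measured. Without the block limma passed 0 of them (6 had an unadjusted p under 0.05), and with it 3 rose and 4 fell, 7.95% of the 88 beside 2.96% of all genes. The median difference over the 88 genes was 0, beside 0.009 for all genes. These 7 calls rest on the block, and 0 of the 88 genes passed when the variance trend was also dropped (16 with an unadjusted p under 0.05).

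Among 25 measured genes of proximal signalling, Prkca rose and Lat2 and Grb2 fell with the block. Prkca, protein kinase C alpha, read 401, 365 and 322 in miR-9/9* cells, against 298, 260.1 and 247 in empty vector cells, with no overlap (log2 difference 0.41, block SE 0.0686, limma block adjusted p = 0.0149, and 0.757 without the block). Its other 2 probe sets above the filter stood at 0.05 each. Lat2, an adaptor of myeloid and mast cell receptors also called NTAL, read 310.5, 272 and 530.4, against 401, 470 and 632, lower within each number (log2 difference -0.45, limma block adjusted p = 0.0444, and 0.999 without it). Grb2, the adaptor that links receptors to Ras, was at 546 ± 199 against 674 ± 249 (SD, n = 3 each; log2 difference -0.29, limma block adjusted p = 0.0438), with a further probe set at -0.03. The kinases that start the cascade were not called in either fit: Syk was at 239.96 ± 60.9 against 205 ± 39.9 (log2 difference 0.21, limma block adjusted p = 0.265). Btk and Plcg2 stood at 0.17 and 0.09. Syk, Btk and Plcg2 were named after their values were seen.

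Of 13 measured phosphatases and adaptors in a list named inhibitory, limma passed 0 in either fit (0 with an unadjusted p under 0.05 without the block, 5 with it). The direction in which each of them acts was not examined. The brightest were Ptprc, the leukocyte phosphatase CD45, at 1508.5 ± 40.1 against 1462 ± 156, and Ptpn6, the phosphatase SHP-1, at 1208 ± 255 against 1041 ± 227 (SD, n = 3 each). Their log2 differences were 0.05 and 0.21 (limma block adjusted p = 0.807 and 0.184). Of 10 measured genes in a list drawn up as ITIM-bearing inhibitory receptors, limma passed 0 in either fit (1 and 3 with an unadjusted p under 0.05). Whether each of them, Cd200r1 among them, carries an ITIM was not examined. Cd300lf was at 282 ± 21.8 against 276 ± 32.3 and Pecam1, the adhesion receptor CD31, at 197 ± 80.0 against 222 ± 97.3. Named after their values were seen, Cd200r1 was at 23.0 ± 3.42 against 39.6 ± 8.64 with no overlap (log2 difference -0.50, limma block adjusted p = 0.0857) and Cd72 at 35.4 ± 12.0 against 23.0 ± 7.49 (log2 difference 0.39). Whether Fcgr2b differed from the receptors of that list was not tested.

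Of 10 measured ITAM adaptors and their receptors, Clec4d rose with the block. Clec4d, a lectin receptor of myeloid cells that pairs with the Fc receptor gamma chain, was at 215 ± 73.8 in miR-9/9* cells, against 125 ± 25.9 in empty vector cells (SD, n = 3 each). The arms do not overlap (log2 difference 0.69, block SE 0.108, limma block adjusted p = 0.0122, and 0.943 without it). Tyrobp, the adaptor DAP12, which carries an ITAM as Fcer1g does, was at 1574 ± 170.1 against 1864 ± 78.7 (log2 difference -0.25, limma block adjusted p = 0.203). Of 9 other Fc and Fc-like receptor genes with a probe set, only Trim21 and Fcer1a passed the filter on dim probe sets. Trim21, a cytosolic antibody receptor, was at 62.9 ± 4.23 against 57.4 ± 6.81, and Fcer1a, the IgE-binding chain of the mast cell receptor that also uses Fcer1g, was at 33.3, 5.16 and 53.0, against 30.1, 8.09 and 7.73. Neither passed. Ms4a2, the beta chain of that receptor, did not exceed 27.4 on any array.

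Among 23 measured genes of the phagocytic cup and its actin machinery, 1 rose and 1 fell with the block. Gsn, which encodes the actin-severing protein gelsolin, read 858, 929 and 712 in miR-9/9* cells, against 1291, 1791 and 1240 in empty vector cells. The arms do not overlap (log2 difference -0.77, block SE 0.0805, limma block adjusted p = 0.00242, and 0.356 without it). All 5 of its probe sets above the filter were lower, from -0.80 to -0.35. Asap1, an Arf GTPase-activating protein, read 173, 156 and 144, against 121, 106 and 98.7 (log2 difference 0.48, limma block adjusted p = 0.0196). A further Asap1 probe set stood at 0.57 and a dimmer one at -0.18. Of the 23 genes, 6 were higher and 5 lower within all 3 numbers, beside 21% and 18% of all genes. Their median difference was -0.01, beside 0.009 for all genes.

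Of the 5 genes around the light chain of Fcgrt, Tapbp, the tapasin gene of class I peptide loading, fell with the block, to 349 ± 38.8 against 437 ± 61.7 (log2 difference -0.31, limma block adjusted p = 0.0444), and its dimmer probe set stood at 0.03. B2m, the light chain itself, was bright, at 2155, 2000 and 2440 in miR-9/9* cells, against 2282, 2301 and 2958 in empty vector cells. Each miR-9/9* array was below its partner, with a mean log2 difference of -0.19, and the gene did not pass (limma block adjusted p = 0.266).

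**Figure D4:**
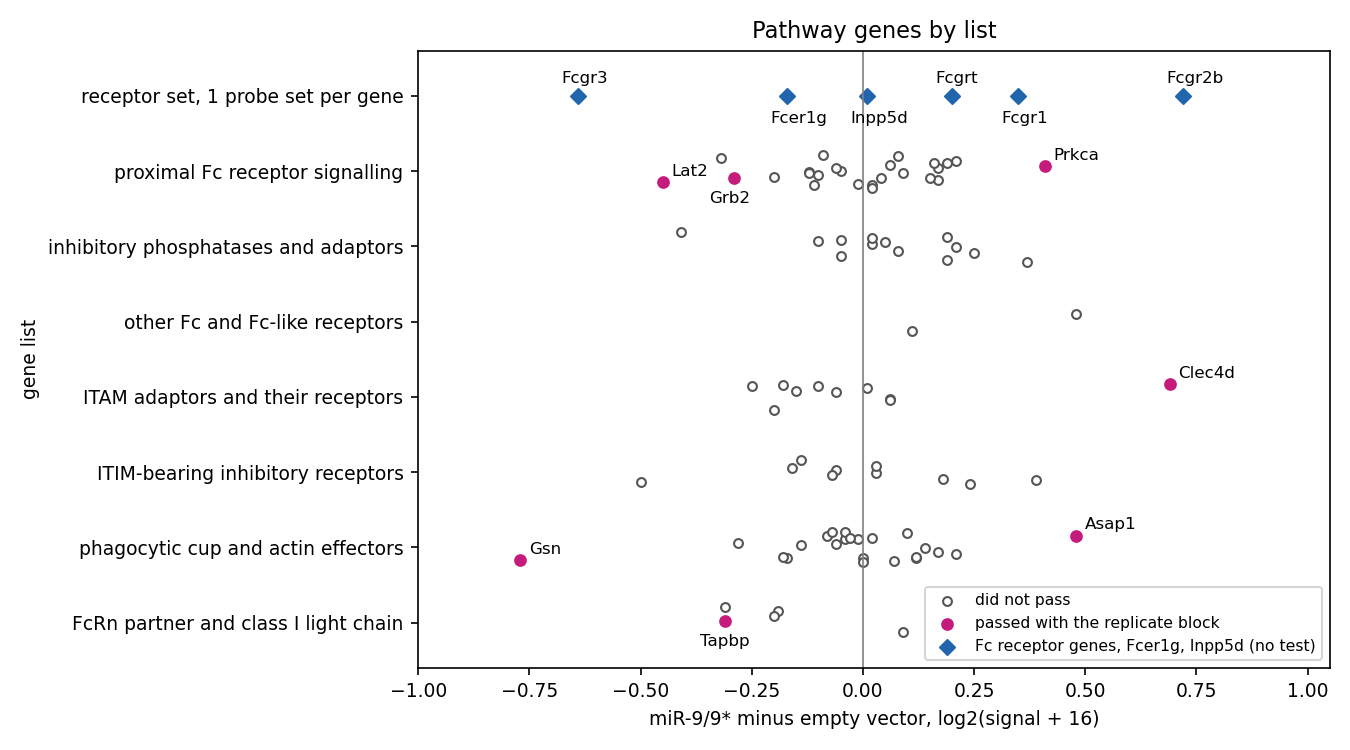
Difference of miR-9/9* minus empty vector in log2(signal + 16) for 6 genes of the receptor set (diamonds, 1 probe set per gene, no test) and for the measured genes of 7 pathway lists (circles, filled where limma with the replicate block passed them). The 7 filled genes lie between -0.77 for Gsn and 0.69 for Clec4d.

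Fc receptors mark several blood cell types, so markers of those types were read beside them. B cells carry Fcgr2b as their Fc gamma receptor, and 0 of 7 B cell markers with a probe set were above the filter, the highest signal on any array being 19.6 for Cd22. Of 9 monocyte and macrophage markers with a probe set 6 were measured, limma passed 0 in either fit (0 and 3 with an unadjusted p under 0.05), and their summed signal ran from 948 to 1267 with miR-9/9* and from 961 to 1193 with the empty vector. The brightest, Lyz2, was at 461 ± 28.5 against 444 ± 76.0, and Mrc1, Mertk and Ccr2 were below the filter. Cd14, Adgre1, Csf1r and Cx3cr1 stood at 0.58, 0.34, 0.18 and 0.07 and Cd68 at -0.46, without passing. Csf1r and Cx3cr1 had low signals. Of the 6 measured markers, 3 were higher and 1 was lower within all 3 numbers, beside 21% and 18% of all genes. Of 12 neutrophil markers with a probe set 7 were measured, and S100a8, S100a9 and Ltf fell with the block while the other 4 did not pass. S100a8 was at 120.4 ± 118 against 318 ± 329 and S100a9 at 103.8 ± 97.0 against 251 ± 221 (limma block adjusted p = 0.0146 and 0.0156). The markers did not go 1 way: Mpo, the myeloperoxidase gene of early granules and also a marker of the line, read 1629, 126 and 288 in miR-9/9* cells, against 345, 132 and 59.97 in empty vector cells (log2 difference 1.38, limma block adjusted p = 0.0732). Ngp, Prtn3 and Mmp9 stood at -0.78, -0.01 and 0.18. The summed neutrophil signal ran from 1572 to 5472 with miR-9/9* and from 1810.0 to 5223 with the empty vector, and Csf3r, Cxcr2, Camp, Mmp8 and Elane were below the filter. Fcgr3 was lower, as were S100a8, S100a9, Ltf and Ngp of the 7 neutrophil markers within every number, and their part in its value was not tested.

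Of 10 mast cell and basophil markers with a probe set 6 were measured and limma passed 0 (0 and 4 with an unadjusted p under 0.05), with summed signals of 713 to 921 with miR-9/9* and 737 to 1062 with the empty vector. Gata2 was the brightest at 667 ± 46.6 against 772 ± 82.9, and Kit was below the filter. Gata2 makes up most of those sums, and the list's median log2 difference was 0.40: Cma1, Hdc, Fcer1a and Cpa3 stood at 1.02, 0.59, 0.48 and 0.31, and Mcpt8 at -0.59. Apart from Gata2 these markers had low signals, not far above the filter. Cma1 read 53.8, 7.63 and 58.5 with miR-9/9*, against 25.2, 1.06 and 5.13 with the empty vector, so no shift of mast cell message is read from that median. NK and T cell markers had 3 of 7 measured, summing to 186 to 308 against 160.2 to 321, with Nkg7 at 214 ± 57.3 against 217 ± 80.5. Dendritic cell markers had 2 of 7, summing to 46.4 to 54.8 against 37.2 to 43.5, with Cd74 at 29.2 ± 5.77 against 32.7 ± 1.74. Zbtb46 was at 20.2 ± 1.59 against 7.65 ± 1.49 with no overlap of its arms (log2 difference 0.62, limma adjusted p = 0.371, and 0.0755 with the block). Its empty vector signals of 8.86, 8.10 and 5.98 lay below the filter, near 13. Zbtb46 thus passed that filter only through its miR-9/9* arrays, and nothing is read from it or from those sums. Limma passed 0 genes of either list in either fit (for NK and T cell markers 0 and for dendritic cell markers 1 had an unadjusted p under 0.05, with or without the block). Among the line's own markers Csf2rb, the common beta chain of the interleukin-3 receptor, fell with the block, to 1735 ± 663 against 2218 ± 845 (log2 difference -0.35, limma block adjusted p = 0.0363). Il3ra, the alpha chain of that receptor, and Spn were lower within every number at -0.39 and -0.29 and did not pass. The rest of that list did not go with them: Csf2rb2, a further beta chain gene, stood at -0.01, Ptprc at 0.05 and Spi1 at -0.14. Cd33 and Mpo stood at 0.35 and 1.38, and none of these passed. Of the 8 line markers, 1 was higher and 3 were lower within all 3 numbers, beside 21% and 18% of all genes. Apart from the called genes and the brightest gene of each list, the markers named with values were chosen after their values were seen.

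The genes most like each receptor gene over the 6 arrays were found by the mean absolute difference of log2 values after centring each gene on its own mean. Closest to Fcgr2b were Dennd4a, at a mean absolute difference of 0.0629, and Nlrp6, an innate immune sensor, at 0.0782. Dennd4a read 335, 264 and 257 with miR-9/9*, against 206, 168 and 150.4 with the empty vector, and like Fcgr2b its arms did not overlap. Closest to Fcgr3 were Fam234a at 0.199 and Ccng2, cyclin G2, at 0.220, both looser matches. Closest to Fcer1g were Trim30a at 0.0263 and the sialomucin gene Cd164 at 0.0268. Fcgr1 was nearest to Insyn2a and Vezt, at 0.104 and 0.110, Fcgrt to Dtx3 and Gm3336, at 0.0453 and 0.0455, and Inpp5d to Agfg1 and Gmcl1, at 0.0250 and 0.0338. These likenesses describe 6 arrays of 2 arms that share replicate numbers.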

How the data were processed

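MAS5 signal intensity, with no version given, was deposited by the authors for 6 Affymetrix arrays, per the submitters' processing notes. Per the labels' protocols, 6 ug of total RNA went into each labelling. The deposited intensity is linear, above 0 and scaled to a mean of 100 after leaving out 2% at each end. Probe sets were named from a platform annotation: 34958 of 45101 carry 1 symbol and 34754 of those matched a RefSeq gene table (GRCm38.p6) by Entrez ID. The 932 probe sets with several symbols were not used.

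Signals were transformed to log2(signal + 16). Each gene was represented by its probe set of highest mean, genes below the median of all probe sets (4.86) were left out, and the arms were compared over 10200 genes in R 4.3.3 by limma 3.58.1 (moderated test with a variance trend, two-sided, Benjamini-Hochberg over all genes, threshold 0.05), without a block. The procedure was tested on simulated data. Arrays of the same number deviated together from the mean of their arm, with correlations across genes of 0.491, 0.616 and 0.681, above the limit of 0.1, so the numbers were read as pairing the arrays, from the data and not from the labels. Receptor and chain genes, lists and named-gene rule were chosen with earlier results of these data known. The rule named every probe set of the 7 genes, up to 4 called genes of each pathway list and of the neighbours (or the 2 brightest of a list), up to 2 of each marker list (or the brightest), and the 2 most similar genes. P-values measure the spread between these samples, which may be technical. The number of arrays limits the precision.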

Additional observations from a re-analysis of the deposited data

How the results depend on the processing

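Differences of the 7 receptor set genes were recomputed with pseudocounts of 1 and 64, quantile normalization, median centring, and without each replicate number. Over these settings the mean difference of the 4 bright Fcgr2b probe sets ran from 0.65 to 1.16, that of Fcgr3 from -0.81 to -0.39 and that of Fcer1g from -0.24 to -0.10. The dimmer Fcgr1 probe set ran from -0.10 to 0.46. Probe sets lower within every number were 1 in place of 2 after quantile normalization, which turned number 3 of Fcer1g, and averaging the probe sets of a gene left Fcgr2b at 0.67.

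Genes called numbered 6. They numbered 302 with the replicate block, 2 with a pseudocount of 1, 0 without a filter (limma, 892 with an unadjusted p under 0.05), 3 without a variance trend, 26 with array weights and 2 with probe sets as units. Leaving out single arrays gave 0 to 8, the 0 being without empty vector replicate 1 (limma, 394 with an unadjusted p under 0.05), 1 without miR-9/9* replicate 1 or 2 and 2 without empty vector replicate 2 or 3. With the block they numbered 282 and 293 at pseudocounts of 1 and 64, 74 without a filter, 38 without a variance trend, 273 after quantile normalization, 187 with averaged probe sets, and 162 to 394 without a replicate number (162 without number 1, 356 without number 2).

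Pathway genes called numbered 0 without the block, also under each alternative without it (limma, 4 to 10 with an unadjusted p under 0.05). With the block they numbered 7, also with pseudocounts of 1 and 64, then 1 without a filter, 4 after quantile normalization, 2 with averaged probe sets and 3 to 6 without a replicate number (3 without number 1). Of the blocked calls, Gsn held under 8 of 9 blocked alternatives, Clec4d under 7, Prkca and Asap1 under 5, Lat2 under 4, and Grb2 and Tapbp under 2. Among the markers and neighbours, S100a8 and Ptov1 held under 7 of 9, S100a9 and Ltf under 6, Csf2rb under 5 and Rras under 3, all 6 being lost without the variance trend, with highest adjusted p of 0.110, 0.277, 0.116, 0.135, 0.223 and 0.207. For the pathway calls the highest adjusted p was 0.0519 for Gsn, 0.0854 for Clec4d, 0.105 for Asap1, 0.303 for Prkca, 0.373 for Lat2, 0.260 for Grb2 and 0.504 for Tapbp. Averaging probe sets ended the calls of Prkca, Asap1, Lat2, Grb2, Tapbp, Ptov1 and Rras. The causes were not tested. Probe sets near the background, such as those of Fcgr4 and Fcgrt, give no reliable level.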
